A study of Rattus norvegicus with 42 samples.

Results

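Elongating RNA polymerase 2, phosphorylated on serine 2 of its C-terminal repeats (pSer2 Pol2), was mapped by ChIP-Seq in rat liver after 140 min of a constant infusion of corticosterone (CONS_140) and compared with vehicle (VEH). The members were all gene regions with a non-zero value in any pSer2 Pol2 library, which left 38315 of 60999 regions and 16568 of 26426 genes. The 4 libraries compared were the 2 CONS_140 libraries and the 2 VEH libraries, of 10 pSer2 Pol2 libraries and 42 libraries in the series. Every rat was a male Sprague Dawley, of an age not given in the labels, that had been adrenalectomised, had received dexamethasone once after surgery and corticosterone (CORT) in its drinking water during recovery, withdrawn before the experiment, and was then infused intravenously. CONS_140 rats received CORT at 0.333 ml/h, after a brief start at 1 ml/h that the paper describes. The VEH libraries of this assay came from vehicle given in pulses at 1 ml/h, 1 of them at 140 min (VEH library 1) and 1 at 180 min (VEH library 2), so CORT itself and the shape of the infusion cannot be told apart in this comparison. Each library pooled the livers of 6 rats, so the spread between 2 libraries is a spread between pools. Constant CORT at 180 min (CONS_180), the peak of a CORT pulse at 140 min (PEAK_140) and the trough after it at 180 min (NADIR_180) had 2 libraries each.

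CORT is the main glucocorticoid of the rat. It enters hepatocytes and binds the glucocorticoid receptor (GR), which moves to the nucleus, attaches to DNA and raises or lowers the transcription of nearby genes. In liver this hormone is known for inducing enzymes that break down amino acids and make glucose, and for acting on clock genes, lipid metabolism and inflammation. Serine 2 of Pol2 is phosphorylated as the polymerase moves through the body of a gene, so the pSer2 signal over a gene marks polymerases that are in the course of making RNA. It is therefore read as transcription in progress at the time the liver was taken, whereas mRNA also holds what was made earlier.

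The deposited values are log2 normalised tags over each gene region, and a difference of 1 between libraries is a factor of 2 before the authors' shrinkage of low values. Depth was 9326927 and 8923921 tags in the CONS_140 libraries, 7953030 and 5904816 in the VEH libraries and 4938473 to 9326927 over all 10. CONS_140 replicate 1 stood apart. Its median value over all regions was 2.84, against 2.36 to 2.56 in the other 9 libraries, and it lay above CONS_140 replicate 2 by a median of 0.50, where the 2 libraries of the other groups differed by 0.0027 to 0.18. The median region was higher in CONS_140 than in VEH by 0.15 on the log2 scale, and changes of single genes are read against that shift. Hepatocyte markers were high in all 4 libraries, with a mean value over 9 markers of 10.39 to 10.95, and 1 of them, Cps1, was called raised. Of 29 tested markers of macrophages, endothelium, stellate cells, bile duct, lymphocytes and red cells none was called.

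A small share of the genes tested was called as different in elongating Pol2 between CONS_140 and VEH, and that share moved with the settings described below. In a limma fit over the 10 libraries, 107 genes were raised, which is 0.646% of the genes tested, and 29 were lowered, which is 0.175% (adjusted p below 0.05 and a change above 1.5-fold in at least 1 region of the gene). Of the raised genes 103 code for proteins, and of the lowered genes 26. The raised genes changed by 1.28 to 6.87 on the log2 scale, with a median of 2.30, and the lowered genes by -5.32 to -1.62, with a median of -2.99. In all 107 raised genes both CONS_140 libraries lay above both VEH libraries, a pattern held by 10.6% of all genes tested, and in all 29 lowered genes both lay below, a pattern held by 13.2%. At region level 227 regions were raised and 75 lowered, and 2264 had an unadjusted p below 0.05. The median VEH value was 6.94 over the raised genes, 9.30 over the lowered genes and 2.34 over all genes tested. Shares over all genes, here and below, thus include many genes of much lower signal.

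The balance of the calls moved with how the libraries were scaled, and their number with single libraries. With each library centred on its median, 187 genes were raised (1.13%) and 100 lowered (0.604%), and with quantile normalization 163 and 163. All 107 raised and all 29 lowered genes were again called after centring, and 102 and 29 of them after quantile normalization. Without CONS_140 replicate 1, 13 genes were raised (0.0785%), all of them among the 107, and 25 were lowered (0.151%), 14 of them among the 29. Without CONS_140 replicate 2, 2549 genes were raised (15.4%) and 64 lowered (0.386%), with 107 and 28 of the calls above among them. Without VEH library 1, 90 genes were raised and 2 lowered, and without VEH library 2, 10 and 1. With replicate number as a block over the 4 CORT groups, whose same-numbered libraries deviated together, and the unnumbered VEH libraries outside the block, 184 genes were raised and 43 lowered, and these include all 107 and all 29. A fit of the 4 libraries alone called 0 genes, with 1141 regions at an unadjusted p below 0.05.

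Promoter sequences were available for 82 of the 107 raised and 21 of the 29 lowered genes (RefSeq, GRCr8, from 250 bases before to 50 bases after the start). The full palindromic glucocorticoid response element was in 0 of the 82 raised and 0 of the 21 lowered windows, and in 0.289% of the windows of all genes tested. Its half-site AGAACA, searched on both strands, was in 9 of the 82 raised and 3 of the 21 lowered windows, and in 12.8% of the windows of all genes tested and 20.7% of all windows in the reference. The E-box CACGTG was in 9 raised windows, 0 lowered and 9.04% of all tested, the cAMP response element TGACGTCA in 0, 0 and 2.85%, and the TATA box TATAAA in 14.6%, 19.0% and 8.33%. The half-site can share bases with a full element. Shown here, 5′ to 3′ on the strand of the gene, are the windows with a half-site of the 2 raised and the 2 lowered genes that changed most among the genes named in the text. Capitals mark the half-site. They are Lpin1 (chr6:45108893-45109192, minus strand), Slc27a5 (chr1:82699286-82699585, minus strand), Fabp1 (chr4:104749090-104749389, plus strand) and Sult1c3 (chr9:7594207-7594506, minus strand).
Lpin1: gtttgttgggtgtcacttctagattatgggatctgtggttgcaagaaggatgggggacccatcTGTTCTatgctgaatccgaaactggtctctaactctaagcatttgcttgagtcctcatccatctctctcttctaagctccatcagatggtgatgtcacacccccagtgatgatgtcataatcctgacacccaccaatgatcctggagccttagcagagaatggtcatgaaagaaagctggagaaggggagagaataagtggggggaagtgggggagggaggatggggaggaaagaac
Slc27a5: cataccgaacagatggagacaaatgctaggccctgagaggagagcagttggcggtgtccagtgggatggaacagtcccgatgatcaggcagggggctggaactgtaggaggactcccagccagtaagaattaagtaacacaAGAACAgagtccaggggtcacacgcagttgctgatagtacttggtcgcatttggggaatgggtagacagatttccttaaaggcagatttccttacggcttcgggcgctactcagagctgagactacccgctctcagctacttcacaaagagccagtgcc
Fabp1: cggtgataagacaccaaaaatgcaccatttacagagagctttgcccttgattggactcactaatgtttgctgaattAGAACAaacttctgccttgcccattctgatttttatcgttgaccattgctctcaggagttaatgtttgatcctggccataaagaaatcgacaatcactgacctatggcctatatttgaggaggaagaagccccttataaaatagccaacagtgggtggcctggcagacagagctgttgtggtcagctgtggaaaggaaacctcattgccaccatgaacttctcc
Sult1c3: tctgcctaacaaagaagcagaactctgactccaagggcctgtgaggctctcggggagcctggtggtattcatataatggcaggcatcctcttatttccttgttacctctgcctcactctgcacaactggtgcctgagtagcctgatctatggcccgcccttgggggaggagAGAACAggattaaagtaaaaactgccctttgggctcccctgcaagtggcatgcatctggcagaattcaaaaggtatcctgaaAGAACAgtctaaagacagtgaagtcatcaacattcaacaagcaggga
The half-site began 187 bases before the start in Lpin1, 109 before in Slc27a5 and 174 before in Fabp1, and Sult1c3 held 2, at 79 before and 4 after.

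Genes long known to answer glucocorticoids were among the most raised. Zbtb16, which encodes a zinc finger repressor (8:53136953-53146953 in rn6, the first 10 kb of the gene, minus strand), had values of 3.96 and 2.84 in VEH libraries 1 and 2 and of 10.46 and 10.08 in CONS_140 replicates 1 and 2. Both CORT pools were far above both vehicle pools, a change of 6.87 ± 0.63 (SE) on the log2 scale (limma adjusted p = 0.000678). Tsc22d3, which encodes the glucocorticoid-induced leucine zipper GILZ (X:111884295-111887906, minus strand), rose from 5.64 and 5.71 to 10.15 and 9.52, by 4.16 ± 0.33 (limma adjusted p = 0.00033). It was called without CONS_140 replicate 1 as well, and in 14 of the 15 alternatives. Per1, the clock gene with a well-studied glucocorticoid response (10:55687050-55695994, plus strand), had values of 4.79 and 3.03 in VEH and of 8.26 and 7.47 in CONS_140, a rise of 3.96 ± 0.57 (limma adjusted p = 0.00784). Fkbp5, a chaperone that lowers the affinity of GR for hormone (20:8009020-8019020, minus strand), had 4.55 and 3.04 in VEH and 7.94 and 7.28 in CONS_140, a rise of 3.82 ± 0.49 (limma adjusted p = 0.00508). In both Per1 and Fkbp5 the 2 VEH libraries lay further apart than the 2 CONS_140 libraries, and VEH library 1 was the higher. VEH library 2 stood at 2.84 in Zbtb16, 3.03 in Per1 and 3.04 in Fkbp5, near its median over all regions of 2.365. The sizes of these rises thus rest in part on low signal in vehicle. Without VEH library 2 the rise was 3.08 in Per1 and 3.06 in Fkbp5. Without CONS_140 replicate 1 neither gene passed, with limma adjusted p of 0.306 for Per1 and 0.186 for Fkbp5.

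Of 23 tested genes in a list of classical GR-induced genes, 8 were raised and 0 lowered. The list's median change was 1.44, against 0.15 over all genes tested, and its median VEH value was 7.01, against 2.34. The other 4 raised members were Cdkn1a, a brake on the cell cycle (3.13 ± 0.50), Nfkbia, the inhibitor of NF-kB (2.72 ± 0.34), the Krüppel-like factor Klf9 (1.99 ± 0.34) and the metallothionein Mt2A (1.90 ± 0.32). Other members missed the threshold, among them the kinase gene Sgk1 with a difference of -0.11 (limma adjusted p = 0.924), the phosphatase gene Dusp1 with 1.21 and Ddit4 with 1.44. Here and below, list members named without having passed were chosen after their values were seen. The lists and their members were chosen with earlier results of these data known. Their medians and shares beside those of all genes are thus a description and no test. After centring 12 members of the list were raised, and without CONS_140 replicate 1 only Tsc22d3 was.

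**Figure D1:**
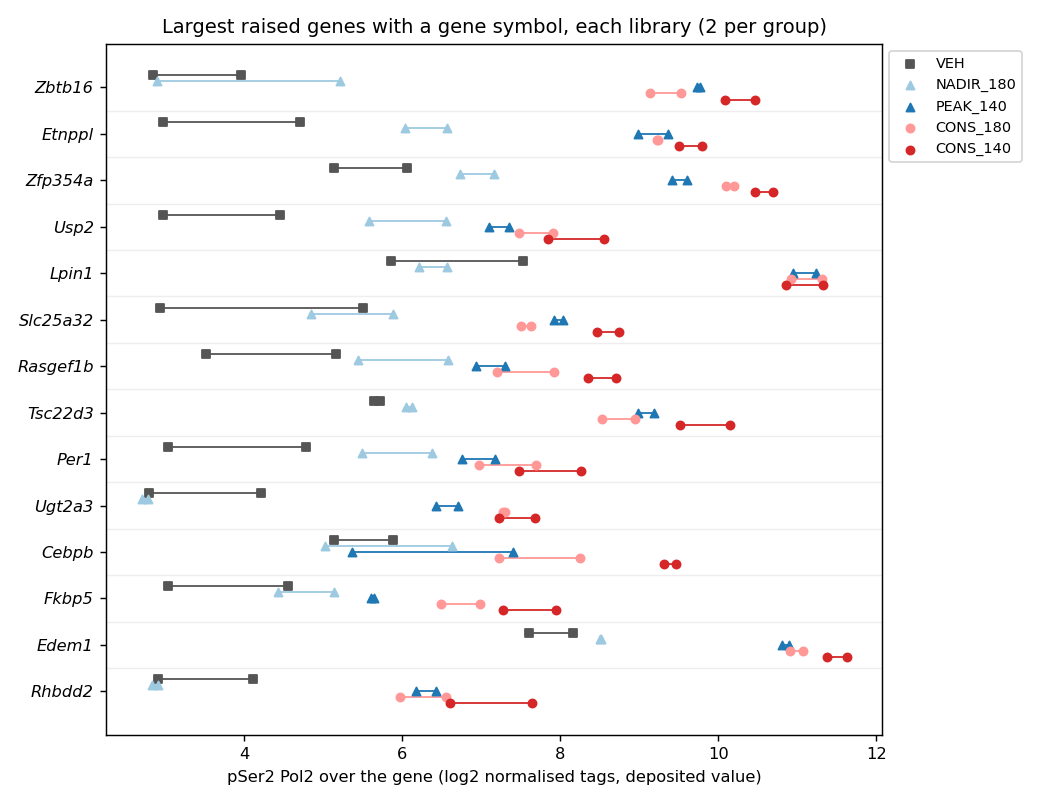
Deposited log2 values of pSer2 Pol2 over the 14 raised genes with a gene symbol and the largest change, as points for each library, 2 per group joined by a line. Both CONS_140 libraries (red) lie above both VEH libraries (grey squares) in every gene, and CONS_180 and PEAK_140 lie between VEH and CONS_140 or beside CONS_140 in most of them.

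Other leading raised genes spanned several functions. Etnppl, a lyase of phosphoethanolamine in lipid metabolism, had values of 4.71 and 2.97 in VEH and of 9.80 and 9.51 in CONS_140 (5.81 ± 0.49, limma adjusted p = 0.000427). Zfp354a, a zinc finger protein of kidney and liver, had 6.06 and 5.13 in VEH and 10.70 and 10.47 in CONS_140, rose by 4.99 ± 0.36 and was called in 14 of 15 alternatives. Usp2, a ubiquitin protease tied to the clock, rose by 4.49 ± 0.51, and Slc25a32, the mitochondrial folate carrier, by 4.38 ± 0.66. Slc25a32 rested on a wide vehicle pair, with 5.51 and 2.94 in VEH against 8.75 and 8.46. Edem1, which helps clear misfolded proteins from the endoplasmic reticulum, had 8.16 and 7.61 in VEH and 11.63 and 11.37 in CONS_140 (3.62 ± 0.28, limma adjusted p = 0.00033) and was called in 14 of 15 alternatives. Rasgef1b, Rhbdd2 and Ugt2a3, a glucuronosyltransferase, completed the 14 largest with Lpin1 and Cebpb, with changes of 4.19, 3.61 and 3.95, and the lincRNA AABR07044148.1, which has no gene symbol, rose by 4.42. Rhbdd2 lies 45.3 kb from Por on chromosome 12, and Por, the reductase that supplies electrons to cytochrome P450 enzymes, rose by 3.22 ± 0.37.

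Transcription factors of the liver were among the raised genes. Cebpb, a factor of the acute phase response and of gluconeogenic genes, had values of 5.88 and 5.14 in VEH and of 9.47 and 9.31 in CONS_140 (3.88 ± 0.68, limma adjusted p = 0.0226). Nr0b2, which encodes the repressor SHP, rose by 2.66 ± 0.35, Nr1i3 (CAR) by 2.10 ± 0.34 and Nr1i2 (PXR) by 1.89 ± 0.33. The last 3 are nuclear receptors, SHP a repressor of bile acid synthesis and the other two sensors of foreign compounds. With Cebpb they make 4 raised and 0 lowered of 26 tested hepatocyte transcription factors and nuclear receptors (list median 0.80), and 0 of them passed without CONS_140 replicate 1. Nr1i3 lies 0.441 kb from Tomm40l, which was also raised (2.13), and ChIP tags carry no strand, so the signal of such neighbours cannot be separated fully. Among 25 immediate early and growth factors 4 were raised and 0 lowered, and the raised ones include Klf15 (1.77 ± 0.35), Btg1 (1.67 ± 0.32) and Klf9. Foxo1, the insulin-restrained factor that turns on gluconeogenic genes, rose by 2.57 ± 0.40 from 6.58 and 6.00 to 9.08 and 8.64.

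Enzymes that handle amino acids and nitrogen were raised in several lists. Of 37 tested genes of amino acid catabolism 6 were raised and 0 lowered (median change 0.70), of 11 genes of the urea cycle and ammonia handling 4 and 0 (median 1.08), of 13 genes of the methionine cycle 4 and 0 (median 0.77) and of 18 amino acid transporters 3 and 0 (median 0.37). All genes tested had a median of 0.15 and 0.646% raised. Without CONS_140 replicate 1 the raised counts of these 4 lists were 1, 1, 2 and 1, and after centring they were 10, 5, 5 and 4.

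Arg1, the arginase that releases urea, was the most reproducible of them. Its values were 9.29 and 9.23 in VEH and 11.90 and 11.69 in CONS_140, a rise of 2.54 ± 0.24 (limma adjusted p = 0.000678), which held in 14 of 15 alternatives. Ass1, which joins citrulline to aspartate, had 9.69 and 9.35 in VEH and 12.19 and 11.69 in CONS_140 and rose by 2.42 ± 0.30. The mitochondrial ornithine carrier Slc25a15 rose by 1.96 ± 0.30 and Cps1, the entry enzyme of the cycle, by 1.29 ± 0.23, from 10.78 and 10.66 to 12.02 and 11.99. Otc (-0.40) and Asl (0.92), the other 2 enzymes of the cycle itself, did not pass the test. In the methionine cycle, Ahcy, which clears S-adenosylhomocysteine, rose by 2.45 ± 0.30, Bhmt, which remethylates homocysteine, by 2.01 ± 0.23 and Mat1a, which makes S-adenosylmethionine in liver, by 1.43 ± 0.23. Mat1a and Ahcy were also called without CONS_140 replicate 1. Nnmt, which spends S-adenosylmethionine on nicotinamide, rose by 2.24 ± 0.42.

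Tdo2, the first enzyme of tryptophan breakdown and a classical hormone-induced liver enzyme, had values of 9.73 and 9.81 in VEH, and CONS_140 replicate 1 stood at 12.04 with replicate 2 within 0.1 of it. The rise was 2.25 ± 0.23 (limma adjusted p = 0.00168). Sds, serine dehydratase, had 7.75 and 7.09 in VEH and 10.11 and 9.80 in CONS_140 and rose by 2.54 ± 0.36 (limma adjusted p = 0.00741). The transaminases Got1 and Gpt2 rose by 1.72 ± 0.31 and 1.88 ± 0.34, and Csad, which makes the precursor of taurine, by 2.10 ± 0.39. Among transporters, Slc38a2 rose by 2.17 ± 0.29 and its relative Slc38a4 by 2.01 ± 0.31, both carriers of neutral amino acids (1.15 in the region of Slc38a4 with the highest mean), and the cationic carrier Slc7a2 by 1.28 ± 0.25, the smallest of the raised changes. Tat, tyrosine aminotransferase, differed by 0.70 ± 0.20, from 12.12 and 12.12 to 12.93 and 12.73. Its 2 groups did not overlap, but the limma adjusted p of 0.236 missed the threshold, and of the alternatives it passed among the regions above the median mean (limma adjusted p = 0.000342) and without CONS_140 replicate 2 (limma adjusted p = 0.00136).

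Few genes that make and store glucose were called. Of 16 tested gluconeogenic genes, Got1 was raised and 0 were lowered, with a median change of 0.34. After centring 3 were raised and 0 lowered. Both CONS_140 libraries lay above both VEH libraries in 7 of the 16 and below in 1, against 10.6% and 13.2% of all genes tested. The list's median VEH value was 7.76, against 2.34 over all genes. G6pc, the last enzyme of glucose output, had 12.28 and 12.05 in VEH and 12.44 and 12.16 in CONS_140, so its groups overlapped (0.13 ± 0.29, and -0.01 after centring). Pck1, the rate-limiting enzyme of gluconeogenesis, differed by 0.31 (limma adjusted p = 0.628). Slc37a4, the transporter that brings glucose 6-phosphate to G6pc, had 8.12 and 7.70 in VEH and 9.80 and 9.04 in CONS_140, and its difference of 1.51 ± 0.35 missed the threshold (limma adjusted p = 0.111). It passed with the replicate block (limma adjusted p = 0.0479), after centring (0.022) or quantile normalization (0.0257), among the regions above the median mean (0.0211) and without CONS_140 replicate 2 (0.00553). Pfkfb1, the liver enzyme that sets fructose 2,6-bisphosphate, rose by 3.48 ± 0.34 from 4.57 and 3.79 to 7.69 and 7.64, and was called without CONS_140 replicate 1 as well. Ppp1r3c, which targets a phosphatase to glycogen, rose by 1.45 ± 0.25. Igfbp1, an insulin-restrained binding protein for IGF1, rose by 1.60 ± 0.27, from 9.94 and 9.71 to 11.53 and 11.32.

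Lipid and bile acid genes moved in both directions. Lpin1, the phosphatidate phosphatase whose promoter is shown above, had values of 7.53 and 5.85 in VEH and of 11.33 and 10.86 in CONS_140, a rise of 4.40 ± 0.47 (limma adjusted p = 0.00183). It was the 1 raised gene of 27 tested for triglyceride synthesis, droplets and lipases, where 0 were lowered and the median was 0.40. In bile acid synthesis, Cyp7a1, the rate-limiting enzyme, rose by 2.25 ± 0.39 from 8.33 and 7.73 to 10.45 and 10.11, Cyp27a1, of the alternative pathway, by 2.48 ± 0.36, and the acyl-CoA synthetase Slc27a5 by 2.01 ± 0.36. With Nr0b2 they make 4 raised and 0 lowered of 21 tested genes, yet the list's median of 0.11 lay below that of all genes. Among 40 tested genes of cytochrome P450 and conjugation, Por, Cyp1a2 (3.29 ± 0.42) and the sulfotransferase Sult1b1 (1.80 ± 0.31) were raised, and Cyp2c12, a steroid hydroxylase, (-2.06 ± 0.39) and the sulfotransferase Sult1c3 (-3.36 ± 0.58) were lowered.

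The fatty acid desaturases Fads2 and Fads1 fell the most on the mean of both CONS_140 libraries, an order that rests on replicate 2. Without it the changes were -3.37 for Fads2 and -3.57 for Fads1, and Fabp1 had -4.18. Fads2, the delta-6 desaturase (1:226142524-226152524, minus strand), had values of 9.16 and 8.85 in VEH and of 5.63 and 1.74 in CONS_140. The CORT pools lay far apart, but both were well below both vehicle pools, and the change was -5.32 ± 0.88 (limma adjusted p = 0.0167). Its neighbour Fads1, the delta-5 desaturase 81.6 kb away, had 8.40 and 8.08 in VEH and 4.67 and 1.93 in CONS_140, a change of -4.94 ± 0.95 (limma adjusted p = 0.0407). Fads2 was called without CONS_140 replicate 1 and Fads1 was not. They were the 2 lowered of 18 tested genes of fatty acid synthesis and desaturation, where 0 were raised. Scd, the delta-9 desaturase, differed by -2.07 (limma adjusted p = 0.191) and Fasn, fatty acid synthase, by -1.55 (limma adjusted p = 0.536). In Fads2 and Fads1, CONS_140 replicate 2 (1.74 and 1.93) lay below that library's median over all regions, 2.37. It was near that median in Slc34a2 (2.48), Nrep (2.58), Aox3 (2.60) and Socs2 (2.63), lowered genes named below. The sizes of these falls and their order thus rest in part on low signal.

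Fabp1, the fatty acid binding protein of liver whose promoter is shown above (4:99063181-99066954 in rn6, plus strand), gave the steadiest fall. Its values were 10.41 and 10.33 in VEH and 6.19 and 4.97 in CONS_140, a change of -4.79 ± 0.43 (limma adjusted p = 0.000618) that held in 14 of 15 alternatives. In cholesterol synthesis, Hmgcs1, which makes HMG-CoA, fell from 9.92 and 9.77 to 6.47 and 5.84 (-3.68 ± 0.51, limma adjusted p = 0.00664), and Fdps, which makes farnesyl diphosphate, from 8.97 and 8.56 to 6.90 and 4.97 (-2.82 ± 0.57, limma adjusted p = 0.0497). These were 2 lowered and 0 raised of 28 tested genes for sterols, whose median of -0.49 was the lowest of the 25 lists. Several further sterol genes had differences of that size without passing the test, among them Msmo1 (-3.85) and Cyp51 (-2.56), and after centring 8 were lowered and 1 was raised.

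Hormone signalling and secreted proteins supplied further falls. Igf1, the growth factor that liver releases under growth hormone, had values of 10.63 and 10.42 in VEH and of 8.39 and 8.08 in CONS_140, a fall of 2.30 on the log2 scale (SE 0.33, limma adjusted p = 0.00772). Socs2, the brake on growth hormone signalling, had 8.06 and 7.43 in VEH and 4.88 and 2.63 in CONS_140 (-3.99 ± 0.69, limma adjusted p = 0.0217). Among 55 tested plasma and acute phase proteins 2 were raised, Agt (angiotensinogen, 2.09 ± 0.34) and Il6r (the receptor of interleukin 6, 2.58 ± 0.35). In the same list 2 were lowered, Hpx (hemopexin, -1.74 ± 0.27) and C9 (the last complement component, -2.97 ± 0.43). After centring 2 were raised and 11 lowered. Both CONS_140 libraries lay below both VEH libraries in 24 of the 55 and above in 14, against 13.2% and 10.6% of all genes tested. The list's median VEH value was 9.08, against 2.34 over all genes. Pdk4, which shuts pyruvate out of oxidation, fell from 11.11 and 11.04 to 9.49 and 9.42 (-1.62 ± 0.32), the smallest of the lowered changes. Other members of the 14 largest falls among genes with a gene symbol, leaving out loci named only by a clone or locus number, were Nrep (-4.76 ± 0.87), the aldehyde oxidase Aox3 (-4.74 ± 0.64), the carbonic anhydrase Car3 (-3.95 ± 0.54), the phosphate carrier Slc34a2 (-3.29 ± 0.63), Stac3 (-3.05 ± 0.58) and the lipase Abhd2 (-2.38 ± 0.45). Of the loci left out, AABR07044001.3 (-4.10), AABR07067810.1 (-3.93), LOC297568 (-3.28) and AABR07054126.1 (-2.99) fell by more than some of these. CONS_140 replicate 1 was above replicate 2 in 28 of the 29 lowered genes, by a median of 1.02, and in all 107 raised genes, by a median of 0.37.

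**Figure D2:**
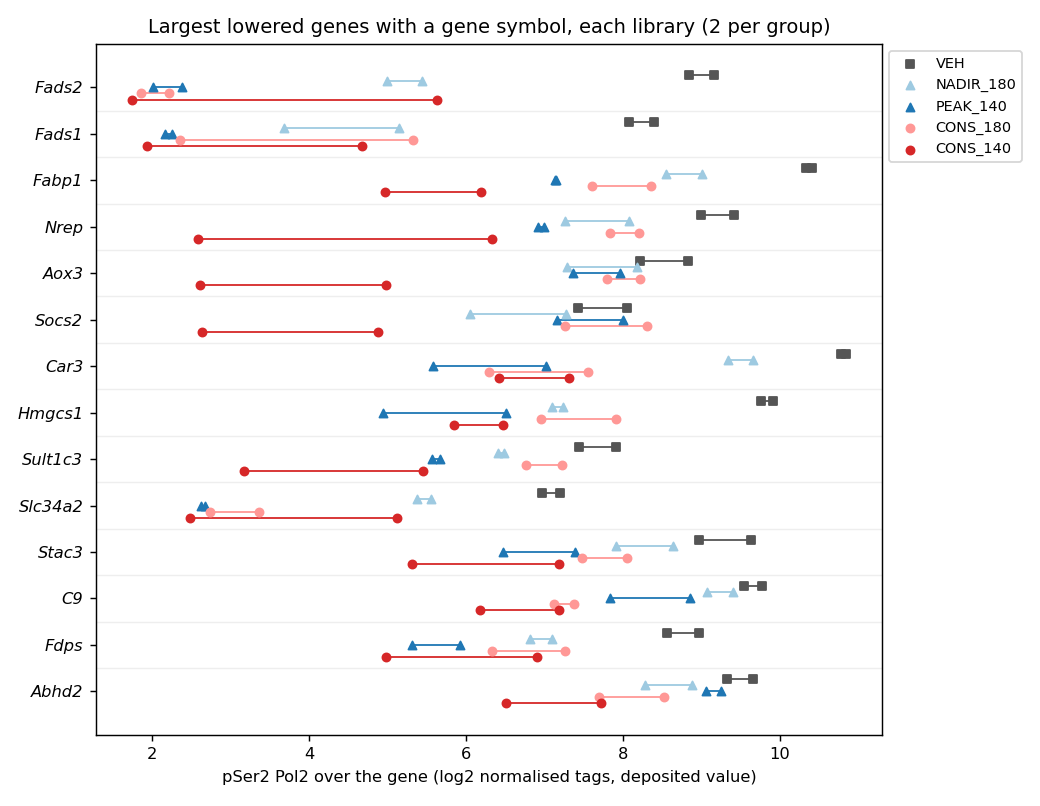
Deposited log2 values of pSer2 Pol2 over the 14 lowered genes with a gene symbol and the largest change, as points for each library, 2 per group joined by a line. Both CONS_140 libraries (red) lie below both VEH libraries (grey squares) in every gene, with the widest spread between CONS_140 pools in Fads2 and Nrep.

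The other lists held few or no calls, and in lists of this size 0 calls is no more than the background share. Of 14 apolipoprotein genes, 20 of the actin cytoskeleton and 22 of oxidative phosphorylation 0 were raised and 0 lowered, with medians of 0.56, 0.17 and 0.40. In 10 of the 14 apolipoprotein genes both CONS_140 libraries lay above both VEH libraries, against 10.6% of all genes tested. The 14 genes had a median VEH value of 8.35, against 2.34 over all genes tested, so the 2 shares come from different signal levels. Apob, the structural protein of VLDL, had 11.51 and 11.28 in VEH and 10.68 and 10.47 in CONS_140 and differed by -0.81 ± 0.27 (limma adjusted p = 0.417), but passed after quantile normalization (limma adjusted p = 0.0381) and among the regions above the median mean (0.0236). Of 21 clock genes only Per1 was called, and Per2 differed by -0.49 and Nr1d1 by 0.34. Myc, which encodes a transcription factor of growth, had 6.39 and 6.05 in VEH and 8.39 and 7.39 in CONS_140. Its difference of 1.67 ± 0.46 missed the threshold (limma adjusted p = 0.212). It passed with the replicate block (limma adjusted p = 0.0327) and without CONS_140 replicate 2 (limma adjusted p = 0.0268). Of 31 genes for NF-kB, cytokines and antigen processing, Nfkbia, Il6r and Tsc22d3 were raised and 0 lowered. Of 35 genes of fatty acid oxidation, Fabp1 and Pdk4 were lowered and 0 raised. Of 12 heme genes Hpx was lowered and 0 were raised, of 13 glycogen genes Ppp1r3c was raised and 0 were lowered, and of 21 glycolytic genes Pfkfb1 was raised and Pdk4 lowered. Of 25 kinase and growth brakes, Tsc22d3, Cdkn1a and the kinase Pim3 (2.44 ± 0.34) were raised and Socs2 was lowered, and of 24 genes of the insulin, growth hormone and IGF axis, Foxo1 and Igfbp1 were raised and Igf1 was lowered.

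**Figure D3:**
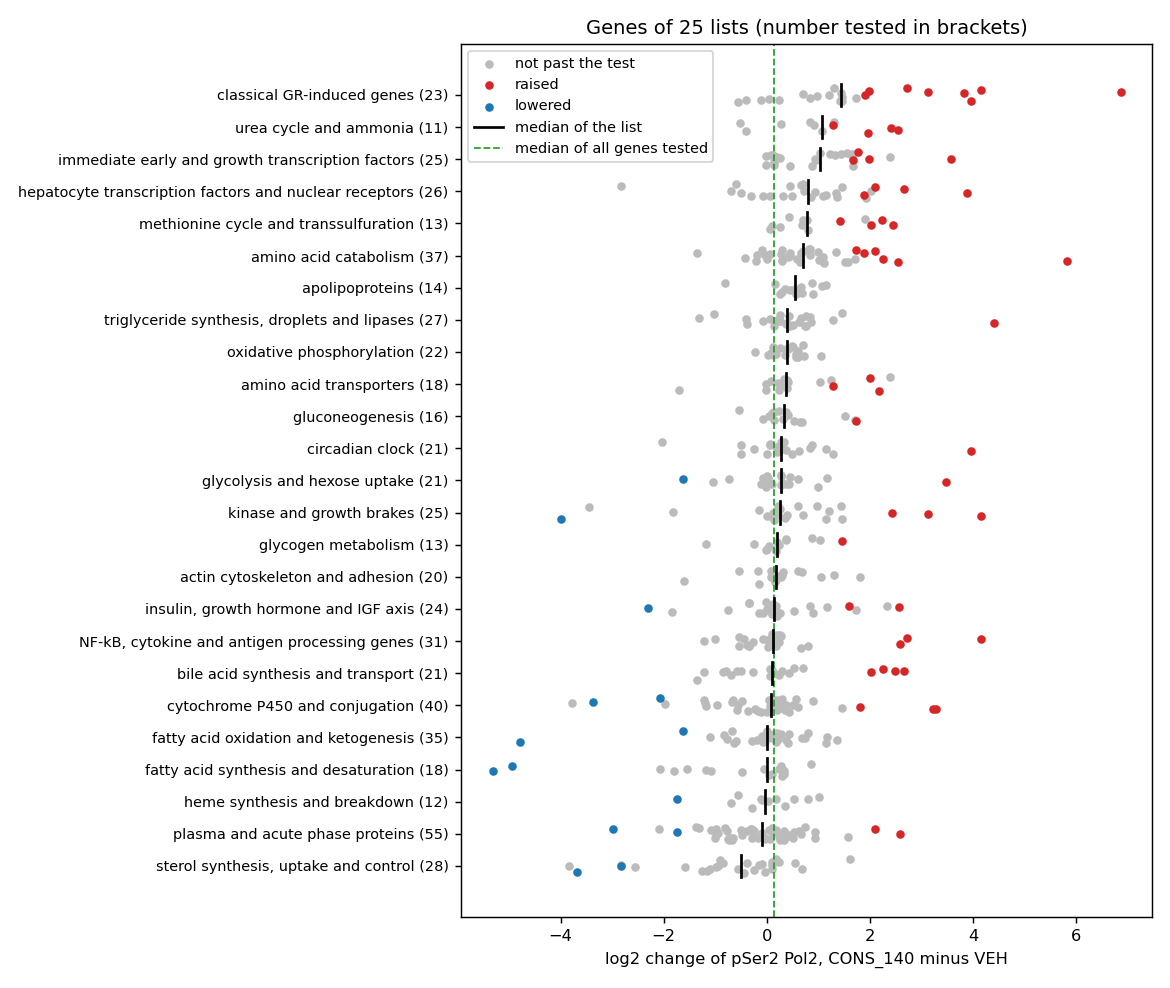
Log2 change of pSer2 Pol2, CONS_140 minus VEH, for the tested members of 25 gene lists (points, the region counted for each gene), with the list median (black bar, from the region with the highest mean of each gene) and the median of all genes tested (dashed line, 0.15). The list of classical GR-induced genes has the highest median, 1.44, and that of sterol genes the lowest, -0.49. The lists were chosen with earlier results of these data known.

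The other CORT groups share the VEH libraries with CONS_140, so their changes are given beside it as values only. Over the 107 raised genes the median change from VEH was 2.30 in CONS_140, 1.59 in CONS_180, 1.61 in PEAK_140 and 0.43 in NADIR_180, and over the 29 lowered genes it was -2.99, -1.44, -2.09 and -1.23. These genes were chosen for their change in CONS_140, which favours that column. A direct test of CONS_140 against CONS_180 called 0 genes in limma, with 1134 regions at an unadjusted p below 0.05. With replicate number as a block, 1 gene was higher and 4 were lower at 140 min, and after centring 0 and 7, and without CONS_140 replicate 2 the counts were 2538 and 31. Lpin1 had 11.33 and 10.86 at 140 min and 11.32 and 10.92 at 180 min, a difference of -0.03. Nr0b2 had 9.84 and 9.40 at 140 min and 8.42 and 7.83 at 180 min, a difference of 1.49 that did not pass (limma adjusted p = 0.629). Among lowered genes, Aox3 had 4.97 and 2.60 at 140 min and 8.22 and 7.80 at 180 min, and Socs2 4.88 and 2.63 against 8.31 and 7.27. The differences of -4.22 and -4.03 did not pass (limma adjusted p of 0.146 and 0.286). Both genes were named for their fall in CONS_140, which favours a lower value there.

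CONS_140 against PEAK_140 compares a steady infusion with the top of a pulse at the same time. Ces1f, Klf12, Insig2 and Slco1b2 were higher in CONS_140, which is 0.0241% of genes tested, and Cxcl10 was lower, 0.00604%. Insig2, which holds back sterol synthesis, had 9.32 and 9.10 in CONS_140, 6.69 and 6.75 in PEAK_140 and 9.93 and 9.59 in VEH (2.49 ± 0.31 over PEAK_140, limma adjusted p = 0.0473). Slco1b2, a transporter of bile acids and drugs, had 8.62 and 8.70 in CONS_140, 6.47 and 6.23 in PEAK_140 and 8.67 and 8.51 in VEH (2.31 ± 0.30). In both genes CONS_140 lay near VEH and the pulse peak lay below. Cxcl10, an interferon-induced chemokine, had 3.63 and 2.44 in CONS_140, 6.76 and 6.56 in PEAK_140 and 3.45 and 2.92 in VEH (-3.63 ± 0.48). Klf12, a repressor, differed by 2.88 ± 0.39 and Ces1f, a carboxylesterase, by 3.18 ± 0.31, but these 2 rest on the region counted. In the region of each gene with the highest mean, Ces1f differed by -2.37 ± 0.73, in the opposite direction, and Klf12 by 0.10 ± 0.33, and with 1 such region per gene 0 genes passed (limma adjusted p = 0.0521 for Insig2, Slco1b2 and Cxcl10). The counts rose to 198 higher and 20 lower with the replicate block, to 86 and 30 after centring and to 24 and 31 after quantile normalization, and they were 3911 and 25 without CONS_140 replicate 2, 3 and 4 without CONS_140 replicate 1, and 0 and 0 without either PEAK_140 library.

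mRNA was measured in other rats, 3 per group, after 180 min of constant CORT or constant vehicle, so this comparison has a vehicle control of the same infusion shape. Of 14092 genes tested with edgeR, 4.45% were higher and 4.75% lower under CORT (adjusted p below 0.05, change above 1.5-fold). Of the 107 genes with raised pSer2 Pol2, 102 were in the RNA table, and of these 87 had higher mRNA (85.3%) and 1 lower. Of the 29 lowered genes 28 were in the table, and 16 had lower mRNA (57.1%) and 0 higher. The median mRNA change was 1.58 over the raised and -0.85 over the lowered genes, against 0.0065 over 11543 genes in both tables.

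Lpin1 mRNA rose from 86.5 ± 14.7 CPM (SD, n = 3) to 1656 ± 601, by 4.26 ± 0.26 (SE) on the log2 scale, close to its pSer2 Pol2 change. Sds mRNA rose by 4.11 ± 0.42 and Got1 mRNA by 3.21 ± 0.21, each more than the pSer2 Pol2 over the gene. Tat mRNA rose by 1.82 ± 0.30 (edgeR adjusted p = 0.000631), from 759 ± 178 CPM to 2685 ± 244 (SD, n = 3), although its pSer2 Pol2 change did not pass. The reverse was seen for Cyp1a2, whose mRNA was 325 ± 52.1 CPM with CORT and 325 ± 70.1 with vehicle (SD, n = 3), and for Bhmt (0.47 ± 0.24) and Csad (-0.23 ± 0.21), none of which passed in mRNA. Cyp7a1 was the 1 raised gene whose mRNA was lower, 41.7 ± 21.3 CPM with CORT against 77.9 ± 9.14 with vehicle (SD, n = 3), a change of -0.89 ± 0.27 (edgeR adjusted p = 0.0417).

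Among lowered genes, the largest fall in mRNA was in Osgin1, a growth inhibitor of the oxidative stress response (-4.32 on the log2 scale against -2.06 in pSer2 Pol2). Slc34a2 mRNA fell from 53.5 ± 6.26 to 6.28 ± 2.91 CPM (SD, n = 3), by 3.04 on the log2 scale. Hmgcs1, Fads2, Fads1 and Fdps mRNA fell by 1.74, 1.18, 1.13 and 1.07. Fabp1 mRNA was 2408 ± 225 CPM with CORT and 3309 ± 276 with vehicle (SD, n = 3), a change of -0.46 that stayed under the fold threshold. Igf1 and Socs2, both lowered in pSer2 Pol2, had mRNA changes of 0.26 ± 0.30 and 0.35 ± 0.53 that did not pass. Of the lists, sterol synthesis had 18 genes lower and 1 higher of 27 measured in mRNA and fatty acid synthesis 12 lower and 0 higher of 17, where pSer2 Pol2 at 140 min called 2 lowered in each.

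**Figure D4:**
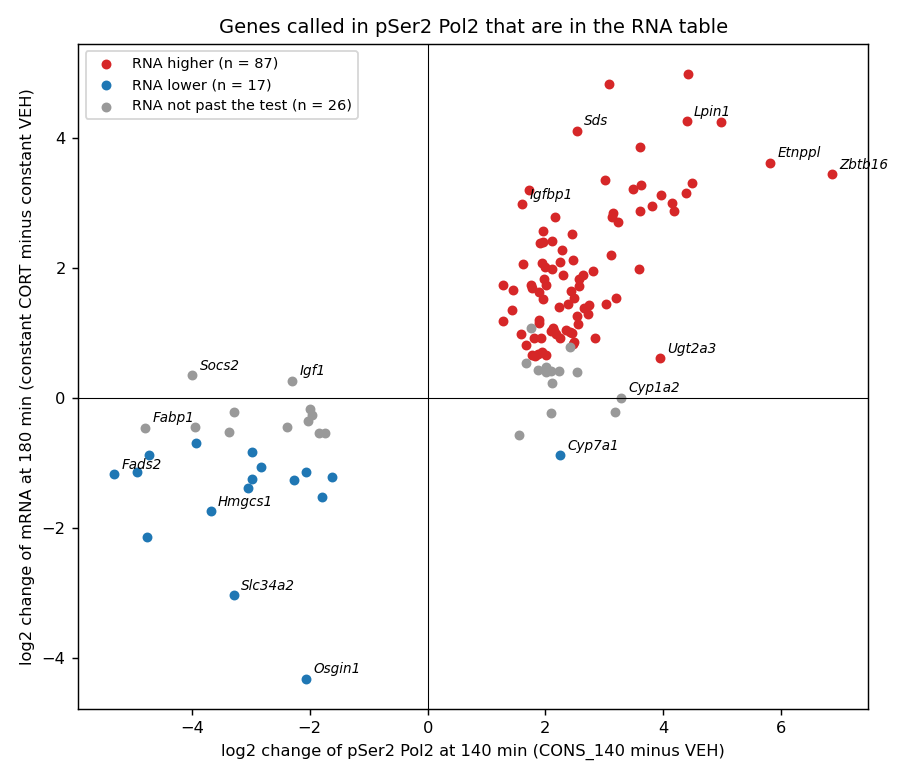
Log2 change of mRNA at 180 min (constant CORT minus constant VEH, 3 libraries per group) against the log2 change of pSer2 Pol2 at 140 min (CONS_140 minus VEH) for the 102 raised and 28 lowered genes in the RNA table. Of the raised genes 97 lie above 0 in mRNA and 5 below, and of the lowered genes 26 lie below 0 and 2 above.

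GR binding after the same infusion and time gave another readout. In the paper's description, aliquots of each replicate's chromatin went to a GR or a pSer2 Pol2 antibody. The 2 assays thus appear to share pools of liver and are not independent material. The peak list for constant CORT at 140 min held 1723 GR peaks. Of the raised genes 55.1% (59 of 107, 95% exact binomial interval 45.2% to 64.8%) had the centre of such a peak within 10 kb of their start, against 20.7% (6 of 29, 7.99% to 39.7%) of the lowered genes and 4.54% of all genes tested. Within 50 kb the shares were 86.0%, 27.6% and 13.5%, and the median distance was 6.57 kb for raised, 424 kb for lowered and 408 kb for all genes. The intervals cover counting over genes only, and these shares are a description with no test. Raised and lowered genes also had higher VEH values than all genes tested (medians of 6.94, 9.30 and 2.34).

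The authors also merged the GR peaks of all groups into 3981 regions and gave a value for each library. Over the 75 raised genes with a merged region within 10 kb, the median GR value was -0.46 and -0.65 in the 2 VEH libraries. In each of the 2 CONS_140 libraries it was at least 4.29 on the log2 scale. Regions entered this list as GR peaks of the groups, so high values under CORT follow in part from that choice. Over all 1301 tested genes with such a region the medians were -0.63 and -0.86 in VEH and 3.97 and 2.72 in CONS_140. A rise at such regions was thus not particular to the raised genes. The 16 lowered genes with such a region had medians of 0.01 and -0.74 in VEH and of 3.10 and -0.12 in CONS_140, so the CONS_140 GR libraries differed from each other there. With merged regions in place of the CONS_140 peaks, 70.1% of raised, 55.2% of lowered and 7.85% of all genes had one within 10 kb, so the low share of lowered genes depends on which peak list is used. Per1 (1.13 kb), Igfbp1 (0.393 kb), Tdo2 (0.141 kb), Nfkbia (0.6395 kb) and Tsc22d3 (0.899 kb) had a CONS_140 peak close to their start. Zbtb16 had its nearest at 11.5 kb, Zfp354a at 68.3 kb and Foxo1 at 259 kb. Among lowered genes Pdk4 (0.1185 kb) and Socs2 (0.954 kb) had a near one, and Fads2 and Hmgcs1 had no CONS_140 peak within 1 Mb. The nearest merged GR region, however, lay 26.9 kb from Fads2 and 7.64 kb from Hmgcs1.

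**Figure D5:**
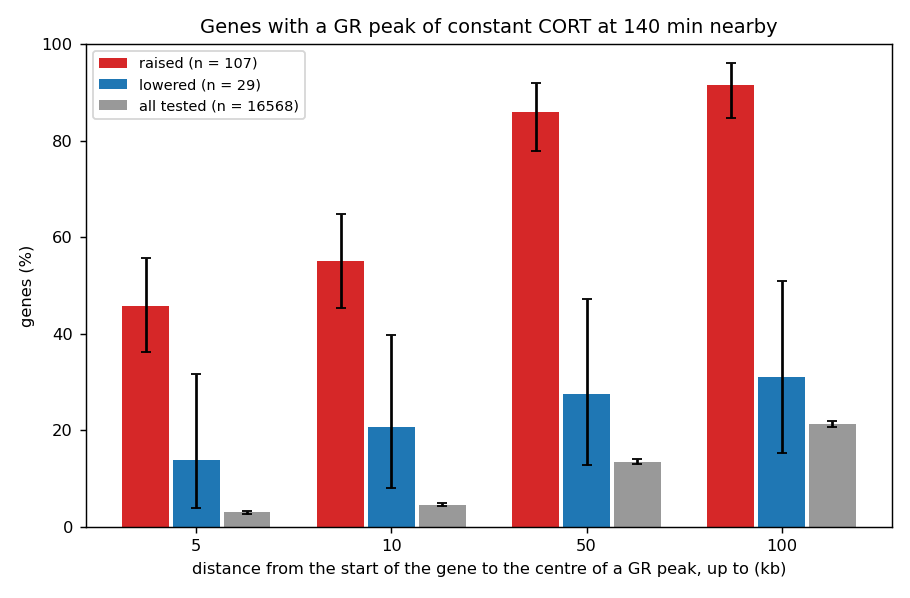
Share of genes whose start lies within 5, 10, 50 or 100 kb of the centre of a GR peak of constant CORT at 140 min, for 107 raised, 29 lowered and 16568 tested genes, with 95% exact binomial intervals as bars. Raised genes reach 55.1% at 10 kb, against 20.7% of lowered and 4.54% of all genes.

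Several called genes lie next to each other. Within 100 kb, 12 pairs of called genes were found, and in each pair both genes moved the same way. They include Fads2 with Fads1, Por with Rhbdd2, Zbtb45 with Slc27a5, Cyp27a1 with Prkag3, Ucma with Phyh, and Osgin1 with the non-coding AABR07044001.3. Zbtb45 and Slc27a5 lie 8.24 kb apart on chromosome 1. The counted regions of AABR07044001.3, Tob2, B4galnt1 and Ppcs overlap a region of another gene, so their signal may belong in part to it.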

How the data were processed

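Liver of adrenalectomised rats was profiled by pSer2 Pol2 ChIP-Seq (10 libraries), GR ChIP-Seq and RNA-Seq. For ChIP, the authors trimmed reads, aligned them to rn6, removed duplicates, and counted tags less input with HOMER over the coding part of each transcript, leaving out those up to 320 b and stopping 10 kb past the TSS. The deposited pSer2 Pol2 and GR values are log2 normalised tags per library. They are not whole and go below 0, as regularised logs do, so they were compared with limma 3.58.1 (R 4.3.3) and not as counts. The authors also deposited positions of GR peaks, and raw counts per gene for RNA, for which their processing notes name STAR and featureCounts 1.6.2. Columns of the authors' own comparisons (fold changes and p-values) were not used.

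pSer2 Pol2 was fitted over all 10 libraries in 5 groups with a mean-variance trend, and RNA with edgeR 4.0.16 (quasi-likelihood, TMM, 12 libraries, genes with more than 10 counts in all). Calls needed a change above 1.5-fold and a p, adjusted after Benjamini and Hochberg, below 0.05. A gene was counted once, by its called region of greatest change. The 14 raised and 14 lowered genes with the largest change and no overlap between groups, leaving out loci named only by a clone or locus number, all called members of 25 lists, and genes the study discusses were named. Members and lists were chosen with earlier results of these data known. DESeq2 1.42.0 served as an alternative for RNA. Both scripts were tested on simulated data.

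In all 6 pairs of numbered pSer2 Pol2 groups the deviations of same-numbered libraries correlated over regions, with r of 0.15 to 0.55. Replicate 1 was also the higher library in each numbered group, by a median of 0.0027 to 0.50. Whether the numbers mark a true pairing was not tested. The VEH libraries carry no number and stayed outside the block, and the labels do not say what a number shares. RNA libraries held 3956379 to 7777219 counts. Alternatives in scaling, filter, threshold, replicates and samples are given in the closing section. Some members of the lists are not reported here by name.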

Additional observations from a re-analysis of the deposited data

Results flagged for a closer look

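In 5 genes the response under constant CORT differed from that at the pulse peak at the same time by a direct limma test over both groups. CONS_140 minus PEAK_140 was 3.18 for Ces1f, 2.88 for Klf12, 2.49 for Insig2, 2.31 for Slco1b2 and -3.63 for Cxcl10 on the log2 scale. Each of these was called in 6 to 10 of its 15 alternatives, with the highest limma adjusted p over those alternatives at 0.605 to 1. In the region with the highest mean, Ces1f instead differed by -2.37 and Klf12 by 0.10. Groups of 2 and 3 libraries were too small for a search for single outlying samples.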

How the results depend on the processing

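For CONS_140 against VEH (107 raised, 29 lowered), the 4 libraries alone gave 0 and 0, centring 187 and 100, quantile normalization 163 and 163, regions above the median mean 170 and 65, no filter 23 and 12, and an adjusted p below 0.01 43 and 12. The replicate block gave 184 raised and 43 lowered. Leaving out 1 library gave 10 to 2549 raised and 1 to 64 lowered. For CONS_140 against CONS_180 (0 and 0), centring gave 0 higher and 7 lower, quantile normalization 0 and 2, regions above the median mean 1 and 12, the replicate block 1 and 4, and leaving out 1 library 0 to 2538 and 0 to 31. For CONS_140 against PEAK_140 (4 and 1), the 4 libraries alone gave 0 and 0, no trend 20 and 1, centring 86 and 30, quantile normalization 24 and 31, regions above the median mean 92 and 23, no filter 8 and 2, an adjusted p below 0.01 0 and 0, 1 region per gene 0 and 0, the replicate block 198 and 20, and leaving out 1 library 0 to 3911 and 0 to 25. An alternative chosen after seeing the data, 1 row per distinct span, gave 108 and 27, 0 and 3, and 1 and 0. The cause of these shifts was not tested, except that fewer or more regions were tested under the filters.

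Of 76 named genes compared with VEH, 71 passed, and none of those 71 changed direction under any alternative run. This says little about robustness. Both CONS_140 libraries lay beyond both VEH libraries in every called gene, so leaving out 1 of these could not turn the sign. The trend, block and threshold settings leave the difference of a region unchanged. G6pc, which had not passed, went from 0.13 to -0.01 after centring. Centring moved 1 of the 76 across the threshold, and a fit of the 4 libraries alone moved 71 to the weaker side. Leaving out CONS_140 replicate 1 also moved many to the weaker side, and leaving out VEH library 2 moved more.

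In RNA (627 higher, 670 lower) every alternative, with the replicate block (631 and 676) and DESeq2 (585 and 632), stayed within 1.5 times. GR peak shares over all genes were 2.99% within 5 kb and 21.4% within 100 kb. With merged GR regions, chosen after seeing the data, shares within 10 kb were 70.1%, 55.2% and 7.85% of raised, lowered and all genes, and within 50 kb 93.5%, 72.4% and 22.7%.

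The 2 pools per group limit every pSer2 Pol2 comparison.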
